A study of Mus musculus with 17 samples.

Results

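Collagens are encoded by genes named for a collagen type and a chain, and the genes read here are those whose symbol gives such a type and chain number. Of the 13905 genes kept in the wild-type, Ctnnb1 and combined libraries 36 were collagen chains, and of the 39179 genes kept in the mock and ADT libraries 44 were. In all 17 files together 35 chains were listed, and 44 in any of them. Every chain listed in a set passed the filter on low values there and was tested. Col2a1, Col6a6, Col9a1, Col9a2, Col19a1, Col22a1, Col24a1 and Col25a1 stood in the mock and ADT files but not in the wild-type, Ctnnb1 and combined files. The lowest gene mean in the wild-type, Ctnnb1 and combined set was 15.6, so weak genes had been removed from it. A chain missing there is not a chain without transcripts.

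A collagen molecule is a triple helix of chains that assemble in the endoplasmic reticulum, where prolines and lysines are hydroxylated, before secretion and crosslinking outside the cell. Fibrillar collagens build the rope-like fibrils of the stroma and come mainly from fibroblasts. Type IV collagen forms the sheet under epithelia and around vessels and smooth muscle cells, in trimers that pair fixed chains: Col4a1 with Col4a2, Col4a3 and Col4a4 with Col4a5, and Col4a5 with Col4a6. In the prostate, epithelial glands sit on such a sheet and are wrapped in smooth muscle and fibroblasts. The chains were read as 3 classes, fibrillar, basement membrane (type IV, Col15a1 and Col18a1) and other, and the last was read further as fibril-associated, network and beaded, and transmembrane chains.

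All mice were C57BL/6. Wild-type prostate was taken at 12 months (3 libraries), tumours carrying a Ctnnb1 allele without exon 3 at about 12 months (the Ctnnb1 group, 3 libraries), and tumours at about 6 to 8 months in which another engineered change was added to this allele (the combined group, 3 libraries). An inducible model of the combined genotype, driven by a Cre fused to an oestrogen receptor domain, gave tumours of about 15 months after mock treatment (2 libraries) or androgen deprivation (ADT, 3 libraries). Loss of exon 3 removes the sites that mark beta-catenin for breakdown. All tumours therefore share the Ctnnb1 allele, and the mock controls carry it too. Age differs with genotype in the combined group, so the effects of age and genotype cannot be told apart there. The labels do not say that each library came from a separate animal, so p-values measure the spread between these samples, which may be technical.

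Values are scaled counts, read counts of a gene divided by a factor for the library's depth and rounded. They summed to between 45675083 and 47248750 in wild-type libraries and to between 32455483 and 35120175 in the 6 tumour libraries of the genotype groups, and to between 30591734 and 32791101 in the inducible model. Ctnnb1 itself was at 18320 to 18850 in wild type, against 25993 to 32871 in the tumours and 30608 to 76649 in the inducible model, and since the total covers exons that remain, it does not check the deletion. The luminal epithelial markers Krt8, Krt18, Epcam, Cdh1 and Hoxb13 summed to 65110 to 75225 in wild type, 65354 to 87243 in Ctnnb1 and 76335 to 105421 in combined tumours. Of these 5, 1 was called higher and 2 lower in Ctnnb1 tumours, beside 28.9% and 29.6% of all genes. In combined tumours 2 were higher and 2 lower, beside 28.3% and 29.5%. Skeletal muscle transcripts, a sign of neighbouring muscle in the piece, summed to 163104, 47317 and 10261 in wild type, to between 67 and 10948 in the Ctnnb1 and combined tumours, to 11451 and 35247 in mock and to 2349, 146 and 54402 in ADT libraries. Differences are given on the log2(value + 1) scale with the moderated standard error (SE), and a gene is called higher or lower at an adjusted p under 0.05 in limma's moderated test. Adjustment was by Benjamini-Hochberg over all genes tested in a comparison.

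In combined tumours 18 of 36 chains were higher and 6 lower than in wild-type prostate, 24 in all, where 28.3% of all genes were called higher, 29.5% lower and 57.8% in either direction. The higher chains were 8 of 9 fibrillar, 3 of 8 basement membrane and 7 of 19 other chains. In Ctnnb1 tumours 4 of 36 chains were higher and 12 lower, 16 in all, where 28.9% of all genes were called higher, 29.6% lower and 58.5% in either direction. The lower chains there were 1 of 9 fibrillar, 5 of 8 basement membrane and 6 of 19 other chains. The median difference over the chains was 0.94 in the combined group and -0.38 in the Ctnnb1 group, beside medians over all genes of -0.01 and 0.00. At an unadjusted p under 0.05 stood 24 chains in the combined comparison, beside 63% of all genes, and 17 in the Ctnnb1 comparison, beside 63.6%. Libraries of combined tumours and wild type did not overlap for 18 chains that were higher and 8 that were lower, beside 32.1% and 34% of all genes. For Ctnnb1 tumours these numbers were 7 and 16 chains, beside 35.9% and 35.6%. Both comparisons use the same 3 wild-type libraries, and the difference between the tumour groups was not tested.

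**Figure D1:**
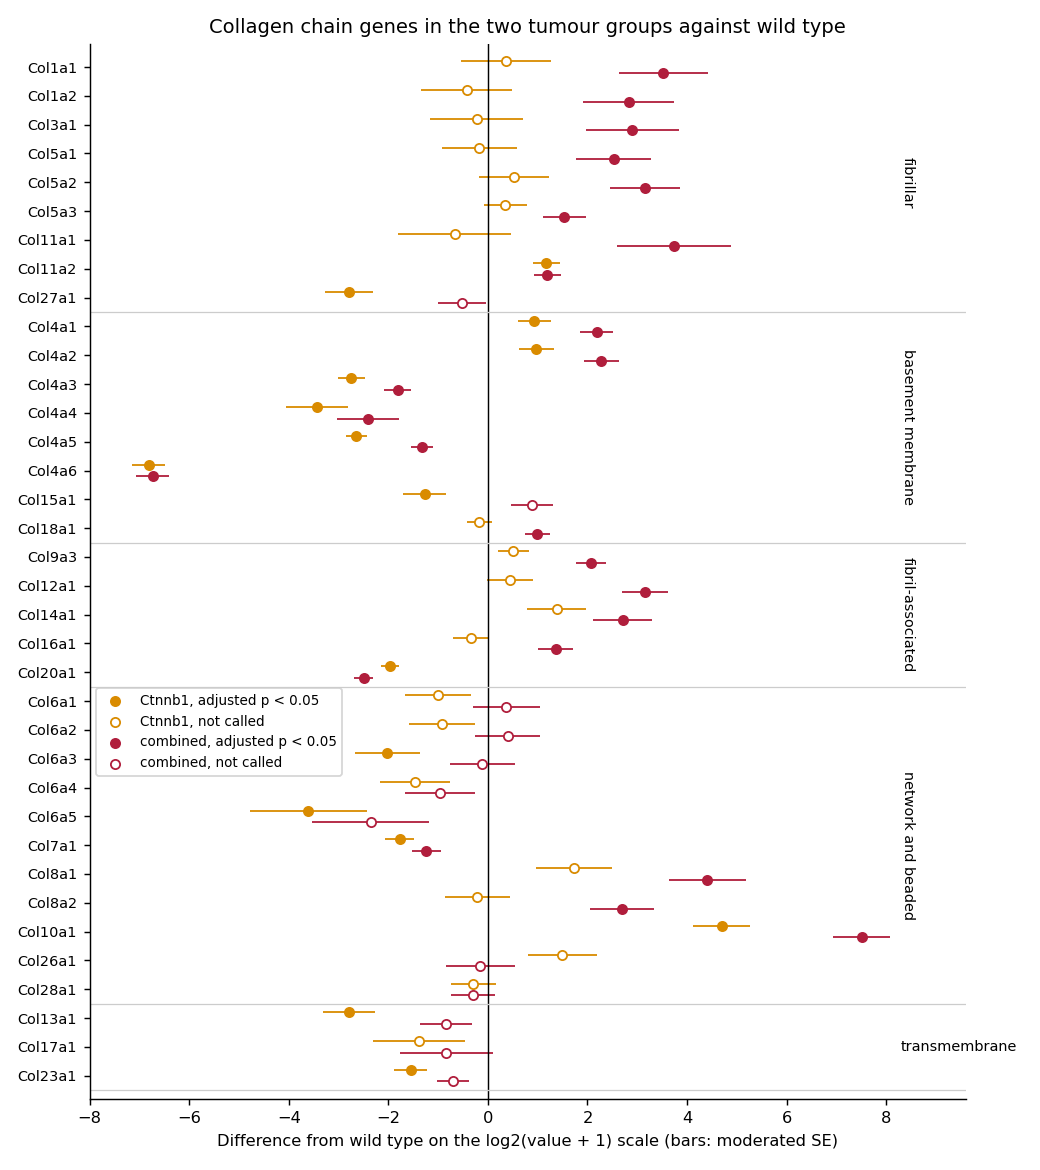
Difference of each of the 36 chains from wild type on the log2(value + 1) scale, with moderated SE bars, in the Ctnnb1 and combined groups (3 libraries each); filled points are called at an adjusted p under 0.05. Fibrillar chains of the combined group lie to the right, from 1.19 to 3.74 for the 8 that are called, and Col4a6 lies farthest left in both groups, at -6.82 and -6.74.

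When library totals were made equal, which raised the median of all genes to 0.49 in the Ctnnb1 and 0.50 in the combined comparison, the share of all calls that were higher went from 49.4% to 78.9% and from 48.9% to 81.9%. The chains then split 8 higher and 10 lower in Ctnnb1 tumours and 19 higher and 5 lower in combined tumours. The number higher in Ctnnb1 tumours was 2 when any 1 library of that comparison was left out, without Col4a1 and Col4a2. In bulk tissue, fewer cells of a type and less RNA of a gene per cell cannot be told apart, which holds for every difference below. Library 12 of the combined group held far less collagen than libraries 10 and 11, as the shares of each library show.

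**Figure D2:**
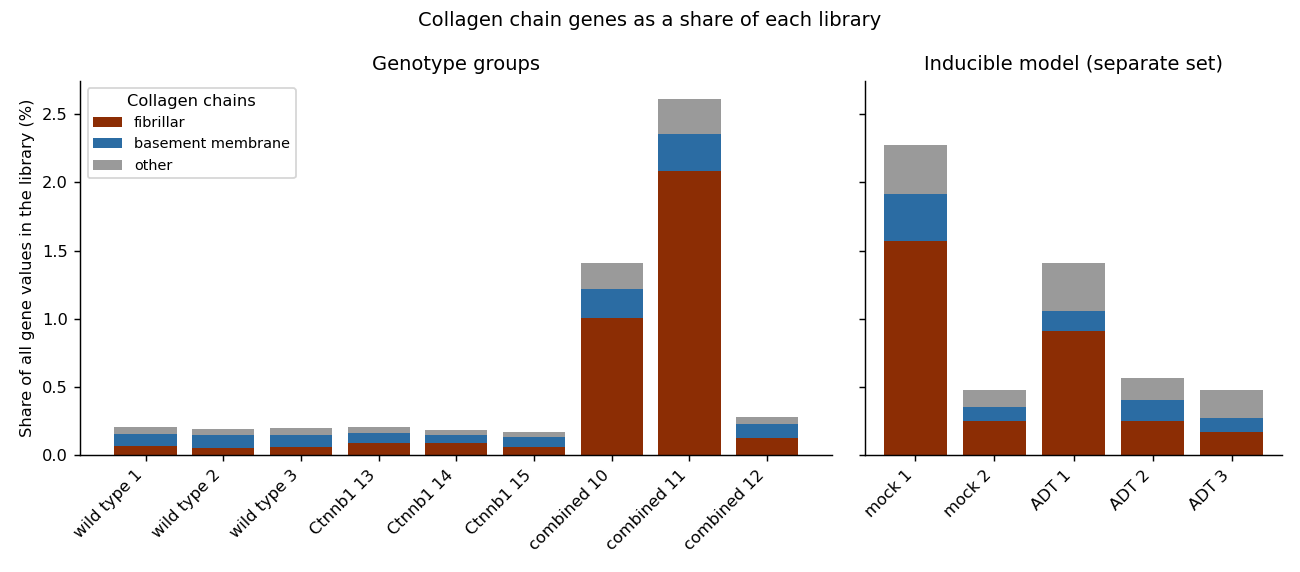
Share of all gene values taken by collagen chains in each library (percent, bars from 0), stacked by class; the 2 panels come from separate sets of files. Collagen took 1.41%, 2.61% and 0.28% in the combined libraries, 0.187% to 0.202% in wild type, and in the inducible model most in mock 1 (2.28%) and ADT 1 (1.41%).

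Collagen chains took 0.202%, 0.187% and 0.195% of all gene values in the wild-type libraries and 0.206%, 0.184% and 0.170% in the Ctnnb1 libraries, so these groups overlapped. They took 1.41%, 2.61% and 0.280% in combined libraries 10, 11 and 12, all above the other groups in share. A share divides by the library's total, which was larger in wild type. Summed values gave another order, with library 12, at 74172, within wild type, at 69642 to 77538. The Ctnnb1 libraries, at 45515 to 55913, all lay below wild type in summed values. Both placements depend on Col4a6, a single chain at 19368 to 20028 in wild type and at most 261 in the Ctnnb1 and combined libraries. The makeup shifted as well. Fibrillar chains gave 27.4% to 31.1% of collagen values in wild type, against 33.2% to 46.0% in Ctnnb1 tumours and 71.3%, 79.7% and 43.4% in combined tumours. Summed fibrillar values overlapped between wild type, at 19049 to 24130, and Ctnnb1 tumours, at 15116 to 23346. Summed basement membrane values were 33978 to 35885 in wild type and 17250 to 20725 in Ctnnb1 tumours. Col4a6 alone gave 19368 to 20028 of the former and 100 to 239 of the latter, so the drop in this sum rests on 1 gene. Basement membrane chains gave 45.6% to 48.8% in wild type, against 34.2% to 43.7% in Ctnnb1 tumours and 14.8%, 10.5% and 36.2% in combined tumours. All these shares of collagen values count Col4a6, and their shift between wild type and Ctnnb1 tumours depends on it.

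Among type IV chains 4 fell and 2 rose in both tumour groups. Col4a6, which pairs with Col4a5 in the sheet around smooth muscle and under some epithelia, stood at 19368, 20015 and 20028 in wild-type prostate. It stood at 222, 100 and 239 in Ctnnb1 tumours and at 261, 150 and 161 in combined tumours. The highest wild-type library was 1.03 times the lowest, and all lay far above every tumour library. The fall was 105.9-fold on the means in Ctnnb1 tumours (log2 difference -6.82, SE 0.33, adjusted p 8.05e-06 in limma) and 103.9-fold in combined tumours (-6.74, SE 0.33, adjusted p 1.14e-05). Levels per kilobase use the joined length of all annotated exons of a gene, which can exceed that of its transcript. Per kilobase of exon, Col4a6 ranked 1 of 36 chains in wild type, at 2484 ± 47.3 (SD, n = 3), ahead of Col6a1 at 744 ± 67.0. It ranked 25 in Ctnnb1 tumours, at 23.4 ± 9.51, and 29 in combined tumours, at 23.9 ± 7.67.

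Its partner Col4a5 fell less. It was at 2482, 2331 and 2079 in wild type, against 388, 287 and 442 in Ctnnb1 tumours and 745, 1246 and 825 in combined tumours. The 3 groups did not overlap, and the log2 difference was -2.64 (SE 0.22, adjusted p 4.85e-05) in Ctnnb1 and -1.32 (SE 0.22, adjusted p 0.00116) in combined tumours. The ratio of Col4a5 to Col4a6 was 0.104 to 0.128 in wild type, against 1.75 to 2.87 in Ctnnb1 tumours and 2.85 to 8.31 in combined tumours, so the order of the pair turned over in every tumour library. Col4a3 and Col4a4, the other partners of Col4a5, were weak and fell in both groups. Col4a3 was at 162, 167 and 174 in wild type, against 18, 29 and 27 in Ctnnb1 and 40, 46 and 56 in combined tumours (log2 differences -2.74 and -1.82). Col4a4 was at 127, 116 and 120 in wild type, against 3, 19 and 17 in Ctnnb1 and 14, 25 and 30 in combined tumours (-3.43 and -2.41). No tumour library reached the wild-type range for either chain. The ratio of Col4a3 to Col4a4 was 1.28 to 1.45 in wild type. In Ctnnb1 tumours this ratio was 6.0, 1.53 and 1.59, and in combined tumours 2.86, 1.84 and 1.87, all above wild type.

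The ubiquitous pair went the other way. Col4a1 was at 5047, 4235 and 5320 in wild type, against 9617, 8295 and 9898 in Ctnnb1 tumours and 24462, 35816 and 12202 in combined tumours. Col4a2 was at 3333, 2843 and 3528, then 6749, 6041 and 6208, then 17589, 26150 and 8339 in the same order. The groups did not overlap for either chain. In combined tumours both rose, by 2.19 for Col4a1 (SE 0.33, adjusted p 0.000777) and 2.28 for Col4a2 (SE 0.35, adjusted p 0.000781) on the log2 scale. In Ctnnb1 tumours the differences were 0.93 (adjusted p 0.0393) and 0.97 (adjusted p 0.0394), and both calls were lost when any 1 of the 6 libraries compared was left out, with adjusted p up to 0.111 for Col4a1 and 0.109 for Col4a2. The ratio of Col4a1 to Col4a2 stayed between 1.37 and 1.59 in all 9 libraries.

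**Figure D3:**
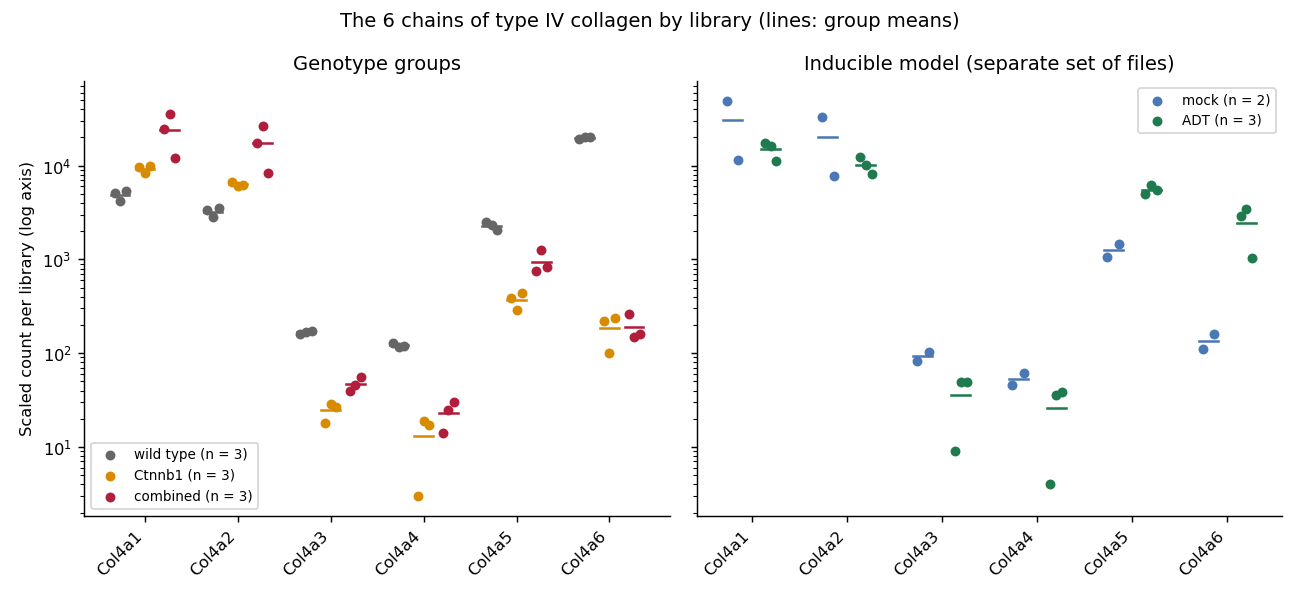
Scaled counts of the 6 type IV chains in each library (log axis; lines are group means), with the genotype groups on the left and the inducible model, a separate set of files, on the right. Col4a1 and Col4a2 rise from wild type to combined tumours while Col4a3 to Col4a6 drop, and Col4a5 and Col4a6 are higher in the 3 ADT than in the 2 mock libraries.

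Type IV genes lie in head-to-head pairs, which is why their start sites are shown. In GENCODE M21 on GRCm38, Col4a6 starts at position 141474076 of chromosome X on the minus strand and Col4a5 at 141475385 on the plus strand, with 1308 bases between. Col4a4 (start 82586849, minus strand) and Col4a3 (start 82586921, plus strand) lie on chromosome 1 with 71 bases between. Col4a1 (start 11312826, minus strand) and Col4a2 (start 11312805, plus strand) on chromosome 8 overlap by 22 bases, and whether reads there were counted by strand is not given in the sources used here. Within the Col4a1, Col4a2 pair the chains moved together. Both chains fell in the tumours in the Col4a3, Col4a4 pair, with a higher ratio there, and in the Col4a5, Col4a6 pair, by unlike amounts. The bases ahead of the start of Col4a6 and Col4a5, on each gene's own strand, and of Col10a1, the chain with the highest log2 difference, are these, from RefSeq on GRCm38.p6 and limited to bases outside the bodies of annotated collagen genes. Capitals mark CCAAT, a promoter box, in Col4a5 and a TATA box in Col10a1.
Col4a6, chrX:141474096-141474326, minus strand: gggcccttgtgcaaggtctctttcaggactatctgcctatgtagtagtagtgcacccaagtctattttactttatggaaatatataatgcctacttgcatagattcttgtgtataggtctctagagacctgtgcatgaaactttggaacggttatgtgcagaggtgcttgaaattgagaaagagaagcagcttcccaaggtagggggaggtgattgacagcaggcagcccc
Col4a5, chrX:141475169-141475369, plus strand: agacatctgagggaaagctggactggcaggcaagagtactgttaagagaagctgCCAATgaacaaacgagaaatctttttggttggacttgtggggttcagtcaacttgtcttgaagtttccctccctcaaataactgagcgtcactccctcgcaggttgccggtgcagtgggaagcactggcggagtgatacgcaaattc
Col10a1, chr10:34389731-34389980, plus strand: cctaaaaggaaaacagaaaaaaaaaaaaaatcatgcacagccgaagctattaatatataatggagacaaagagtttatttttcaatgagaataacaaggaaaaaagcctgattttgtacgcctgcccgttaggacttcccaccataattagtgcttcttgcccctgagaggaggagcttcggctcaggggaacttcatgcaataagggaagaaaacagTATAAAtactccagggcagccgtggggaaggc
Windows of 250 bases ahead of the start were searched on both strands for 6 motifs, of which a CArG box can hold a TATA box within it. Among 32851 such windows of all genes, TATAAA stood in 12.4%, CCAAT in 33.8%, GGGCGG in 32.7%, CTTTGA in 13.8%, AGAACA in 16.1% and a CArG box in 1.47%. Of 38 collagen windows 5, 13, 22, 9, 2 and 1 held them in that order. The Col4a6 stretch shown held none of them. A match describes letters only.

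Smooth muscle markers, like Col4a5 and Col4a6, were lower in both tumour groups than in wild type. The 10 markers, Acta2 and Myh11 among them, summed to 144728, 157065 and 185002 in wild type, against 3542, 1832 and 2993 in Ctnnb1 tumours and 16537, 19978 and 5991 in combined tumours. Every combined library thus had a higher marker sum than every Ctnnb1 library, while Col4a6 overlapped between these groups. All 10 markers were called lower in both comparisons and none was at 0. For every list in this paragraph, counts stand beside 29.6% of all genes lower in Ctnnb1 and 29.5% in combined tumours. Schwann cell and nerve markers fell too, 8 of 9 in Ctnnb1 and 7 of 9 in combined tumours, from sums of 4057 to 4293 in wild type to 1819 to 2797 and 2305 to 2928, with Gfra3 at 0 in Ctnnb1 13 and 14 and combined 11, Cdh19 and Dbh at 0 in Ctnnb1 14 and Th at 0 in Ctnnb1 15. Skeletal muscle markers were called lower as well, 9 of 10 and 10 of 10, with Pvalb, Myh1, Tnnc2 and Myh4 at 0 in Ctnnb1 libraries 13 and 14 and combined library 12, and Myh2 at 0 in combined libraries 11 and 12. Ctnnb1 library 15, however, summed to 10948, above wild-type library 3 at 10261. Only 3 of the 10 skeletal muscle markers were lower without overlap in Ctnnb1 tumours, beside 35.6% of all genes. The part of these cell types in the type IV result was not tested.

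Col15a1 and Col18a1, which carry heparan or chondroitin sulphate chains and lie where basement membranes meet the stroma and vessels, were each called in 1 of the comparisons. Col15a1 was at 2273, 2177 and 2059 in wild type, against 993, 921 and 791 in Ctnnb1 tumours and 6948, 5259 and 1756 in combined tumours. It was lower in Ctnnb1 tumours (log2 difference -1.27, SE 0.43, adjusted p 0.0325 in limma), but the call was lost when any 1 of the 6 libraries was left out, with adjusted p between 0.062 and 0.0889. In combined tumours libraries 10 and 11 lay above wild type and library 12 below, and the difference of 0.89 was not called (adjusted p 0.108). Col18a1 was at 2599, 2094 and 2577 in wild type and 5110, 6206 and 3473 in combined tumours, all higher (log2 difference 0.99, SE 0.25, adjusted p 0.00992). In a fit over 12 genotype libraries this call was lost (adjusted p 0.0539). In Ctnnb1 tumours it overlapped wild type, at 2735, 1558 and 2281.

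Of 9 fibrillar chains 8 rose in combined tumours. Col1a1 and Col1a2, the chains of type I collagen, and Col3a1, the single chain of type III, were the strongest genes of the class. Col1a1 was at 4516, 3708 and 4342 in wild type and 71365, 175255 and 8835 in combined tumours. Col1a2 was at 7658, 6102 and 6635, against 73859, 170183 and 8831. Col3a1 was at 8751, 6405 and 6505, against 96089, 171016 and 9219. For each of these, combined library 12 lay just above wild type and libraries 10 and 11 far above it. The log2 differences were 3.52 for Col1a1 (SE 0.90, adjusted p 0.00996), 2.83 for Col1a2 (SE 0.91, adjusted p 0.0271) and 2.90 for Col3a1 (SE 0.93, adjusted p 0.0268). Without library 12 they were 4.74, 4.05 and 4.17, and without library 11 they were 2.59, 1.92 and 2.06. The calls of Col1a2 and Col3a1 held only without library 12 and were lost when any of the other 5 libraries was left out, with adjusted p up to 0.0832. Per kilobase of exon these 3 genes ranked 1 to 3 of 36 on the means of combined tumours, at 12970 for Col1a1, 9383 for Col3a1 and 6783 for Col1a2. In wild type they ranked 5, 3 and 6 in the same order. Values of Col1a1 and Col1a2 were alike in combined tumours, but the lengths used were 6563 and 12426 bases. The gap between these 2 genes per kilobase thus comes from annotated length.

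Minor fibrillar chains start and limit the width of type I fibrils. Of these, Col5a1, Col5a2, Col5a3 and Col11a1 followed the same order of libraries, and Col11a2, given below, did not. Col5a1 was at 1055, 902 and 1064 in wild type and 7867, 17360 and 1413 in combined tumours (log2 difference 2.52, adjusted p 0.0192). Col5a2 was at 1200, 1060 and 1088, against 14449, 25203 and 2720 (3.16, adjusted p 0.00513), and Col5a3 at 363, 291 and 529, against 918, 2334 and 640 (1.54, adjusted p 0.0151). Col11a1, a chain best known from cartilage and from activated stroma, was at 63, 54 and 40, against 878, 4186 and 92 (3.74, SE 1.14, adjusted p 0.0215). For all 4 genes every combined library lay above every wild-type library, with library 11 highest. The calls of Col11a1, Col5a1 and Col5a3 were lost in some fits that left out 1 library, Col11a1 without combined 10, wild type 2 or wild type 3 (adjusted p 0.0578, 0.0536 and 0.0616), Col5a1 without combined 10 or wild type 2 (0.0582 and 0.0555) and Col5a3 without wild type 2 (0.0552). The number of fibrillar chains called higher was 8 without combined library 12, 4 without library 10 and 3 without wild-type library 2.

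**Figure D4:**
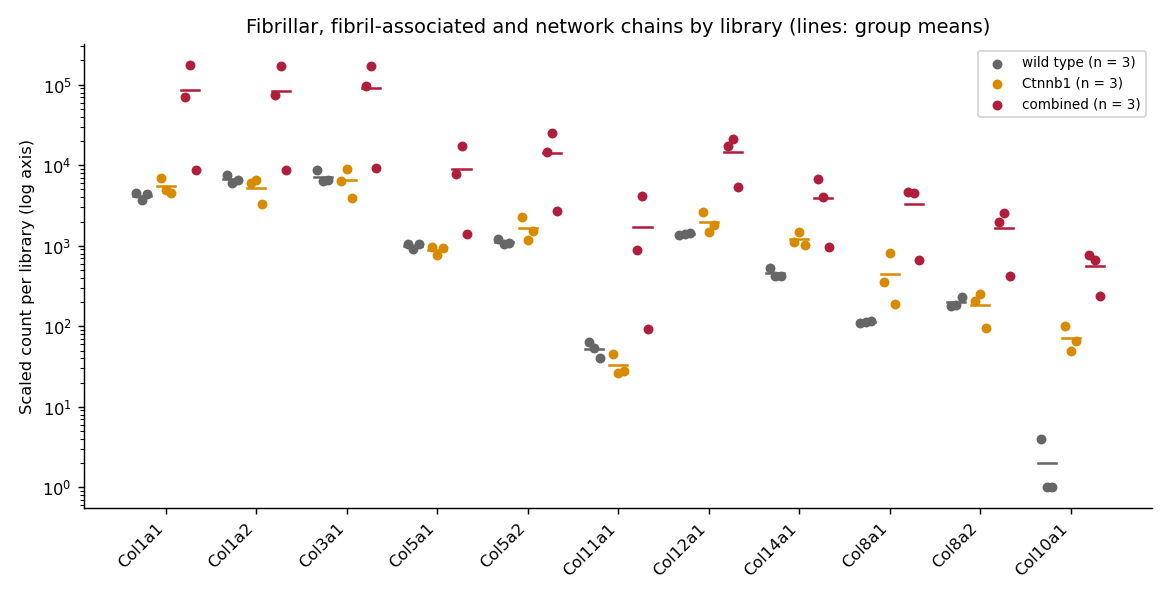
Scaled counts of 11 fibrillar, fibril-associated and network chains in each library of the genotype groups (log axis; lines are group means; 3 libraries a group). Combined libraries 10 and 11 lie well above the other groups for every chain drawn, and combined library 12 lies nearer to them.

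In Ctnnb1 tumours most fibrillar chains overlapped wild type. Col1a1 was at 6877, 4964 and 4507, Col1a2 at 5953, 6564 and 3281, and Col3a1 at 6403, 9029 and 3969, with adjusted p between 0.705 and 0.848. Col11a2 was the exception upward, at 250, 180 and 267 against 137, 85 and 88 in wild type (log2 difference 1.18, SE 0.28, adjusted p 0.00694). It was at 173, 251 and 287 in combined libraries 10, 11 and 12 (1.19, adjusted p 0.00649), so library 12 was highest here. Neither tumour group overlapped wild type. Col27a1, a fibrillar chain of cartilage and some epithelia, was the exception downward, at 94, 30 and 84 against 387, 442 and 478 (-2.79, SE 0.48, adjusted p 0.00156). In combined tumours it was at 294, 512 and 182 and was not called. The ratio of Col1a1 to Col1a2 was 0.590 to 0.654 in wild type, against 1.16, 0.756 and 1.37 in Ctnnb1 tumours and 0.966 to 1.03 in combined tumours, so every tumour library lay above wild type.

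Fibroblast markers followed the libraries in part. The 12 markers summed to 22151, 19880 and 20380 in wild type, against 9780, 11852 and 8601 in Ctnnb1 tumours and 53888, 66667 and 14909 in combined tumours, and none was at 0. In combined tumours 5 were called higher and 1 lower, Lum at 5138, 13783 and 702 against 490 to 793, where library 12 overlapped wild type. Tcf21 fell by 1.63. In Ctnnb1 tumours none was called higher and 4 were lower, Dcn at 3720, 4616 and 3193 against 11673 to 12993. Counts of called markers in this paragraph stand beside 28.3% of all genes higher and 29.5% lower in combined tumours. In Ctnnb1 tumours these shares were 28.9% and 29.6%, and that of the lower fibroblast markers was near the latter. Endothelial markers summed to 5034 to 6399 in wild type, against 6347 to 6855 in Ctnnb1 tumours and 11904, 13649 and 7092 in combined tumours, with 7 of 10 higher in the last. Macrophage markers summed to 2691 to 3400, 6050 to 7419 and 23005, 20545 and 6034 in the same order, with 5 of 7 higher in combined tumours. No marker of either list was at 0. Adipocyte markers, 5 listed, summed to 757 to 3338, 600 to 891 and 1054 to 2311, with 1 called higher in combined tumours. The fibroblast, endothelial and macrophage lists had their lowest combined value in library 12, and their part in the fibrillar result was not tested.

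Fibril-associated chains, which sit on the surface of fibrils, split into 4 that rose and 1 that fell in combined tumours. Col12a1 was at 1366, 1402 and 1425 in wild type and 17149, 21084 and 5406 in combined tumours (log2 difference 3.16, SE 0.46, adjusted p 0.000643). Col14a1 was at 525, 427 and 424, against 6655, 4080 and 978 (2.71, SE 0.59, adjusted p 0.00491). No combined library fell to the wild-type range for either gene, library 12 included. Col16a1 rose by 1.36 (adjusted p 0.0108) and Col9a3, a type IX chain best known from cartilage, from 24, 30 and 34 to 134, 91 and 161 (2.07, adjusted p 0.000717). These 4 calls held in every fit that left out 1 library. In Ctnnb1 tumours none of the 4 was called. Col14a1 was at 1107, 1486 and 1019 there, above each wild-type library, with an adjusted p of 0.0753.

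Col20a1 went against its class. It was at 833, 669 and 733 in wild type, against 173, 219 and 180 in Ctnnb1 tumours and 164, 115 and 118 in combined tumours. Neither tumour group overlapped wild type, and the log2 differences were -1.96 (SE 0.18, adjusted p 7.94e-05) and -2.50 (SE 0.18, adjusted p 2.72e-05).

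Among the network chains, Col10a1 rose most of all collagens. It encodes the single chain of type X collagen, the network collagen of hypertrophic cartilage. It was nearly absent from wild-type prostate, at 4, 1 and 1, and was at 101, 50 and 66 in Ctnnb1 and 758, 669 and 235 in combined tumours. The 3 groups did not overlap. The log2 differences were 4.70 (SE 0.57, adjusted p 0.000261) and 7.51 (SE 0.57, adjusted p 3.11e-05). With wild type this low the size depends on the pseudocount, and with a pseudocount of 8 the differences were 2.97 and 5.66, still called. Per kilobase Col10a1 ranked 36 of 36 in wild type, against 26 in Ctnnb1 tumours and 19 in combined tumours. Of the 12 osteoblast and chondrocyte markers only 5 were listed in this set, with sums of 3232 to 3358 in wild type, against 4615 to 5915 in Ctnnb1 and 5136 to 5826 in combined tumours. In each comparison 2 of these 5 were higher and 2 lower. Of all genes 28.9% were higher and 29.6% lower in Ctnnb1 tumours, and 28.3% and 29.5% in combined tumours.

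Col8a1 and Col8a2, the short chains of the hexagonal network under endothelium, rose together in combined tumours. Col8a1 was at 110, 113 and 117 in wild type and 4619, 4573 and 671 in combined tumours (log2 difference 4.41, SE 0.77, adjusted p 0.00159), a 29.0-fold difference of means. Col8a2 was at 178, 186 and 233, against 1994, 2532 and 417 (2.69, SE 0.65, adjusted p 0.00774). Each combined library exceeded each wild-type library for both genes. In Ctnnb1 tumours Col8a1 was at 356, 805 and 188, again above wild type, but was not called (1.73, adjusted p 0.0841), and Col8a2 overlapped wild type at 208, 250 and 95.

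Type VI collagen forms beaded filaments between fibrils and cells, and its chains were lower or not called in Ctnnb1 tumours and not called in combined tumours. Col6a1 was at 3235, 2977 and 3563 in wild type, against 1803, 1210 and 1953 in Ctnnb1 and 5316, 11266 and 1236 in combined tumours. Col6a2 was at 2428, 2173 and 2590, then 1540, 851 and 1542, then 3965, 8098 and 971. Col6a3 was at 2534, 2454 and 3544, then 881, 648 and 575, then 2394, 7940 and 923. Every Ctnnb1 library lay below every wild-type library for the 3 chains, while combined libraries lay on both sides, with library 12 lowest. Col6a3 was called lower in Ctnnb1 tumours (-2.02, SE 0.65, adjusted p 0.0266), and the call held in the fit without Ctnnb1 library 13 and was lost in the other 5 (adjusted p up to 0.0788). Col6a1 and Col6a2 were not called (adjusted p 0.225 and 0.256). Col6a5 was at 378, 301 and 418 in wild type and 8, 54 and 52 in Ctnnb1 tumours (-3.61, SE 1.18, adjusted p 0.0282), a call lost without Ctnnb1 library 13 (adjusted p 0.0956) or any wild-type library (adjusted p up to 0.0725). In combined tumours Col6a5 was at 79, 370 and 11 and overlapped wild type. Without combined library 12, Col6a1 and Col6a2 were called higher there, at 1.252 (adjusted p 0.0117) and 1.245 (adjusted p 0.0167).

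Col7a1, the anchoring fibril chain that ties epithelial basement membrane to the stroma, fell in both groups. It was at 2349, 1665 and 2481 in wild type, against 773, 456 and 691 in Ctnnb1 tumours and 1238, 960 and 620 in combined tumours. The tumour libraries all lay below wild type, and the log2 differences were -1.77 (SE 0.29, adjusted p 0.0012) and -1.24 (SE 0.29, adjusted p 0.00693). With equal totals the second was no longer called (adjusted p 0.0502). Col6a4, Col26a1 and Col28a1 were not called in either comparison.

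Of the 3 transmembrane chains, which carry a membrane anchor and can be shed from the cell surface, 2 were lower in Ctnnb1 tumours. Col13a1 was at 113, 131 and 86 in wild type and 26, 6 and 20 in Ctnnb1 tumours (log2 difference -2.79, SE 0.53, adjusted p 0.00244). Col23a1 was at 1487, 1344 and 1157, against 273, 791 and 423 (-1.55, SE 0.33, adjusted p 0.00395). The groups did not overlap for either gene. Col17a1, the hemidesmosome collagen of basal epithelial cells, was at 694, 954 and 570 in wild type, against 495, 95 and 445 in Ctnnb1 tumours and 1759, 155 and 243 in combined tumours, and was not called. Its low libraries, Ctnnb1 14 and combined 11, also had the lowest sums of the 8 basal and squamous markers, at 1439 and 1244 against 4563 to 13373 in the other 7 libraries. In combined tumours none of the 3 transmembrane chains was called, and Col23a1 was at 865, 806 and 764 (-0.71, adjusted p 0.0934).

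Genes that make, bind and sense collagen were read from lists, for which counts and medians are given. The counts stand beside 28.3% of all genes higher and 29.5% lower in combined tumours, and 28.9% higher and 29.6% lower in Ctnnb1 tumours. In Ctnnb1 tumours the enzymes, fibril partners, basement membrane partners and receptors all had shares near or below these, in both directions. Of the enzymes and chaperones of collagen assembly and crosslinking, 30 of 31 were tested. In combined tumours 14 were higher and 5 lower (median 0.94, beside -0.01 for all genes), and in Ctnnb1 tumours 4 were higher and 9 lower (median -0.61, beside 0.00). Loxl2, a crosslinking oxidase, rose by 3.31 in combined tumours, Plod3, a lysyl hydroxylase, by 0.98, while Ppib, a prolyl isomerase of the assembly complex, and Mia3, a receptor that loads procollagen for export, fell by 0.95 and 0.98. In Ctnnb1 tumours Ppib fell by 0.89 and Mia3 by 0.92, and Glt25d2, a collagen galactosyltransferase, fell by 2.93. Neither Ppib nor Mia3 overlapped wild type in either tumour group.

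Of 15 fibril partners, of which Dcn, Lum, Dpt and Fbln1 are fibroblast markers as well, 9 were higher and 1 lower in combined tumours (median 2.18) and 1 was higher and 4 lower in Ctnnb1 tumours (median -0.38). Thbs1, a matricellular protein, was higher in both, by 4.10 and 2.17. Thbs2, Tnc and Fn1, a thrombospondin, a tenascin and fibronectin, were higher in combined tumours by 4.47, 3.40 and 2.70. In Ctnnb1 tumours Dcn, a proteoglycan that coats fibrils, Tnxb, a tenascin, and Dpt, dermatopontin, fell by 1.70, 2.77 and 2.98. Of 18 basement membrane partners 8 were higher and 2 lower in combined tumours (median 0.75) and 4 higher and 4 lower in Ctnnb1 tumours (median -0.34). Lamc3 and Lama2, laminin chains, were lower by -4.53 and -2.14 in combined and -5.48 and -2.43 in Ctnnb1 tumours. Npnt, an integrin ligand of the basement membrane, was higher by 3.09 and 3.34.

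Of 10 collagen receptors tested, 6 were higher and none lower in combined tumours (median 1.21), and 3 were higher and 3 lower in Ctnnb1 tumours (median 0.18). Itga2, the integrin subunit of epithelium and platelets that binds collagen, was higher in both, by 4.15 and 3.83, and Ddr1, the epithelial collagen receptor kinase, by 0.44 and 0.64. Ddr2, the receptor kinase of stromal cells, and Itga1, the integrin subunit of smooth muscle and stroma, fell by 1.91 and 1.42 in Ctnnb1 tumours, and in combined tumours neither was called.

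Androgen deprivation was compared with mock treatment within the inducible model. No chain of 44 was called, where 0.00859% of all genes, 2 of 23289, were called in limma. At an unadjusted p under 0.05 there were 8 chains, beside 16.2% of all genes. Groups did not overlap for 5 chains higher under ADT and 7 lower, beside 16.4% and 16.8% of all genes. The median difference was -0.44 over the chains, -0.66 over fibrillar and -0.67 over basement membrane chains, beside -0.02 over all genes.

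The lowest p belonged to the type IV pair on chromosome X. Col4a5 was at 1062 and 1447 in mock and 4933, 6281 and 5463 in ADT libraries (log2 difference 2.16, SE 0.20, p 0.000152, adjusted p 0.0713 in limma). Col4a6 was at 111 and 162, against 2899, 3435 and 1041 (4.01, SE 0.59, p 0.00132, adjusted p 0.116). For both genes all ADT libraries lay above both mock libraries, by 4.43-fold and 18.0-fold on the means. When only genes with a mean of at least 50 were fitted, Col4a5 was called (adjusted p 0.0419). Leaving out 1 library left the differences between 1.93 and 2.38 for Col4a5 and between 3.69 and 4.55 for Col4a6, with no call. The ratio of Col4a5 to Col4a6 was 9.57 and 8.93 in mock and 1.70, 1.83 and 5.25 in ADT libraries. Smooth muscle markers summed to 34561 and 21120 in mock and 11058, 20968 and 19376 in ADT libraries, with none at 0. Of these 10 markers none was called in limma and 2 at an unadjusted p under 0.05, with 2 higher and 3 lower without overlap. Basal and squamous markers summed to 2136 and 29220 in mock and 6972, 35896 and 28366 in ADT libraries, so the groups overlapped. The 5 luminal markers summed to 80217 and 92664 in mock and 42775, 54129 and 45419 in ADT libraries, with none at 0. None of them was called in limma, 4 of 5 were lower without overlap, and 4 had an unadjusted p under 0.05 (median -1.56). The part of these cell types in the result was not tested. Col4a3 and Col4a4 were lower in each ADT library than in each mock library, at 9 to 49 against 83 and 103 and at 4 to 39 against 46 and 61 (adjusted p 0.426 and 0.552).

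**Figure D5:**
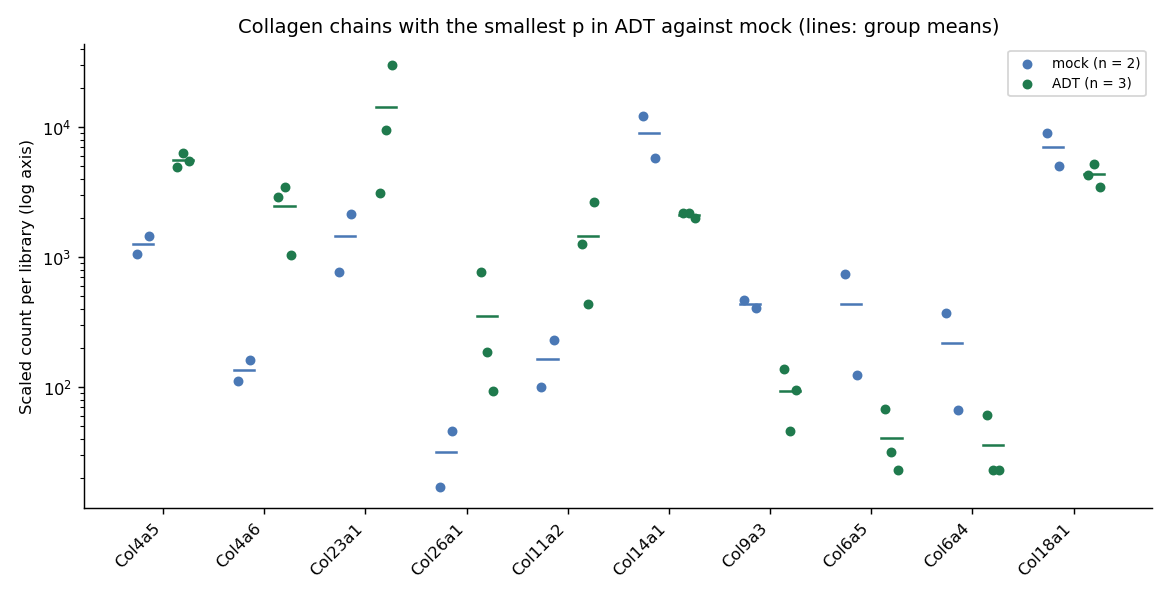
Scaled counts of the 10 chains with the smallest p in ADT against mock, in each library (log axis; lines are group means; 2 mock and 3 ADT libraries). The first 5 chains lie higher and the next 4 lower in every ADT library, and the last, Col18a1, overlaps; none is called.

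The other chains with low p were of several classes. Col14a1, on the fibril surface, was at 12160 and 5731 in mock and 2184, 2180 and 1995 in ADT libraries (-1.98, p 0.00256, adjusted p 0.129). Col9a3 was at 471 and 408, against 137, 46 and 95 (-2.36, adjusted p 0.177). Col11a2 was at 101 and 231, against 1270, 436 and 2654 (2.89, adjusted p 0.229). The groups were apart for all 3 genes. Col23a1, the transmembrane chain, was at 773 and 2133, against 3137, 9428 and 29924 (2.90, adjusted p 0.294). The transmembrane class took 1.01%, 6.53% and 21.8% of collagen values in the ADT libraries and 0.183% and 2.71% in the mock libraries, so its shares overlapped. Col26a1, a secreted chain first found in gonads, was at 17 and 46, against 771, 185 and 93 (3.03, adjusted p 0.272). Col6a5 was at 748 and 124, against 68, 32 and 23 (-3.01, adjusted p 0.237), and Col6a4 at 370 and 67, against 61, 23 and 23 (-2.27, adjusted p 0.333). In these last 4 genes, too, no ADT library overlapped a mock library. Col18a1 was at 9033 and 5020, against 4267, 5216 and 3481 (-0.66, adjusted p 0.405), with overlap.

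For the major stromal chains the libraries of each group lay far apart. Col1a1 was at 101735 and 15925 in mock and 135159, 16782 and 8955 in ADT libraries. Col1a2 was at 124681 and 21773, against 49119, 18148 and 9750, and Col3a1 at 187875 and 23598, against 52917, 24498 and 16475. Mock library 1 and ADT library 1 held most of the collagen, and the groups overlapped for all 3 genes. The direction of Col1a1 and Col3a1 turned when mock library 1 was left out, from -0.56 to 0.78 and from -1.26 to 0.23, and that of Col1a1 also without ADT library 3 (0.24). Fibroblast markers summed to 98841 and 42392 in mock and 132573, 22852 and 27879 in ADT libraries, with none at 0, and their part was not tested.

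ADT library 1 also stood apart in how partner chains balanced. The ratio of Col1a1 to Col1a2 was 2.75 there, against 0.731 to 0.925 in the other 4 libraries of the model. The ratio of Col5a1 to Col5a2 was 2.11, against 0.420 to 0.679, and that of Col6a1 to Col6a3 was 10.6, against 1.05 to 1.82. Col24a1 (622 against 23 to 125), Col25a1 (920 against 13 to 41) and Col26a1 (771 against 17 to 185) were highest in the same library. Osteoblast and chondrocyte markers, of which 11 of 12 were tested, summed to 22879 there, against 3823 to 6929 in the other libraries. In ADT against mock 0 of these 11 were called in limma and 4 had an unadjusted p under 0.05, beside 16.2% of all genes. Without overlap 5 were higher and 1 lower under ADT, beside 16.4% and 16.8% of all genes. Sp7, the osteoblast transcription factor, was at 4767 there and at 6 to 32 elsewhere, and Alpl, the mineralising phosphatase, at 9208 against 274 to 627. Ibsp, bone sialoprotein, was at 3896 in ADT library 1 but also at 3306 in ADT library 3. Their part in these ratios was not tested.

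Members of the 4 pathway lists were not called under ADT in any case. Of 30 assembly genes, 15 fibril partners, 18 basement membrane partners and 11 receptors, 0 passed in limma, with 0, 1, 3 and 3 at an unadjusted p under 0.05 and medians of 0.03, -0.74, -0.39 and -0.76 beside -0.02 for all genes. The lowest adjusted p were those of Lamb3, a laminin chain of hemidesmosomes, at 0.15 (log2 difference 3.16), Thbs1 at 0.182 (-1.27) and Ddr1 at 0.205 (-0.54). Lamb3 averaged 14735 in ADT and 1950 in mock libraries without overlap.

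Within groups the order of mean levels per kilobase of exon differed, and it depends on the annotated lengths. In wild type Col4a6 (2484 ± 47.3, SD, n = 3) led, followed by Col6a1 (744 ± 67.0), Col3a1 (736 ± 135), Col4a1 (652 ± 75.6) and Col1a1 (638 ± 64.8). The ranges of the last 4 overlapped. In Ctnnb1 tumours Col4a1 (1242 ± 115) and Col4a2 (957 ± 55.9) led, and Col1a1 (830 ± 192) followed, with a spread that reached that of Col4a2. In combined tumours Col1a1 (12970 ± 12810), Col3a1 (9383 ± 8249) and Col1a2 (6783 ± 6533) led, within each other's spread. In mock libraries Col3a1 had the highest mean, with 2404 and 19140, and in ADT libraries Col1a1, with 1364 to 20590. Neither led in every library. In mock library 2 Col1a1, at 2426, lay above Col3a1, and in ADT library 3 Col23a1, at 5217, lay above Col1a1, at 1364. At the other end stood Col10a1 in wild type, at 0.639 per kilobase, and Col4a4 in both tumour groups, at 1.23 and 2.17.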

How the data were processed

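RNA-seq of mouse prostate and prostate tumours (paired reads) was read from tables of 17 libraries. The score values are gene counts divided by a size factor for each library and rounded, made by the authors before they were deposited, as the values show. Per the submitters' processing notes, genes were counted with HTSeq 0.6.0 against GRCm38.p3. Other tools named by the authors, per the submitters' processing notes, are R 3.2.3 with DESeq2 1.14.1, the aligners Bowtie2 2.2.6.0 and TopHat2 2.1.0, and FastQC 0.11.4. The design named a count test for raw counts, and since the values were scaled, limma 3.58.1 in R 4.3.3 was used on log2(value + 1). Sequencing depth behind a value is therefore unknown, and no counting interval is given.

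The 9 libraries of wild type, Ctnnb1 and combined groups were fitted together, and the 5 mock and ADT libraries alone, with a trend in the prior variance. Genes needed a value of at least 1 in 3 of 9 or 2 of 5 libraries. P-values were adjusted by Benjamini-Hochberg over all genes. A permutation of 3 against 3 libraries cannot go below 0.1, so none was used. The script was tested on simulated data. In the genotype set 631 features without a gene ID, 270 repeated IDs and 389 features repeating another's values were left out, and in the inducible set 3668 repeated rows. Values in every library were to be given for the 10 called chains with the largest change in each direction and their partner chains, and for the 10 chains with the smallest p under ADT, and those of other chains were added after they were seen. Of each pathway list up to 4 genes with the smallest p are named. Marker genes named beside a result were chosen after their values were seen. The members and lists were chosen with earlier results of these data known. A further genotype group of 3 libraries, comparisons that rest on that change alone, and 1 marker of the luminal list, whose 5 other markers are given, are not reported here.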

Additional observations from a re-analysis of the deposited data

How the results depend on the processing

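Each comparison with wild type was repeated under 15 alternatives and ADT against mock under 13, covering the pseudocount, scaling, filters, prior variance, the libraries fitted and each library left out. Of the 16 chains called in Ctnnb1 tumours 11 were called under every alternative, and of the 24 in combined tumours 17. The number called ranged from 11 to 22 and from 19 to 27. Chains higher in Ctnnb1 tumours numbered 4, and were 8 with equal totals, 7 with only the groups compared, and 2 with no trend, with 12 genotype libraries and without any 1 library (lowest 2, highest 2). Under ADT 1 chain was called, Col4a5, with a mean of at least 50, and 0 otherwise.

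Some uncalled differences changed sign, and the cause was not tested. With equal totals Col1a2 and Col3a1 in Ctnnb1 tumours were at 0.067 and 0.269, and Col6a3 in combined tumours at 0.406. Leaving out 1 library gave -0.503 to 0.09 for Col3a1 in Ctnnb1 tumours, and in combined tumours -0.342 to 1.252 for Col6a1, -0.285 to 1.245 for Col6a2 and -0.915 to 0.637 for Col6a3. Under ADT it gave -1.067 to 0.609 for Col12a1, -1.899 to 0.777 for Col1a1, -2.759 to 0.234 for Col3a1, -1.734 to 0.368 for Col4a1, -1.715 to 0.4 for Col4a2, -0.724 to 1.392 for Col6a1, -0.816 to 1.083 for Col6a2 and -2.065 to 0.538 for Col6a3. Mock and ADT libraries share the numbers 1 and 2, which no label says mark a pair. With the replicate block 0 chains were called, and Col12a1 and Col1a1 were at 0.028 and 0.243. Where 1 mock library remained, it was assumed to vary like the ADT libraries.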
